A study of Mus musculus with 6 samples.

Results

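Cluster 5 is the group of nuclei that the deposited table of nuclei numbers 5, and it was taken as deposited. It held 2253 of the 38154 nuclei in the series and was found in all 6 samples, with 177, 543 and 509 nuclei in QCM replicates 1 to 3 and 20, 296 and 708 nuclei in SCM replicates 1 to 3. The deposited table gives the number alone, so it is called cluster 5 here and is described by its leading genes, Fam129a, Ptpn22, Slc30a10, Csgalnact1 and Grb10.

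The nuclei came from organoids grown from jejunal crypts of C57BL/6 mice 8 to 12 weeks old. Organoids are small epithelial cultures that hold the stem, absorptive and secretory cells of the gut lining, without the immune, stromal and vascular cells of the tissue. They were kept in medium conditioned by quiescent fibroblasts (QCM), which were mouse embryonic fibroblasts arrested by serum deprivation, or by senescent fibroblasts (SCM), which were the same kind of cell driven into senescence by X-rays or doxorubicin. The methods state in general that a biological replicate stands for a mouse, unless otherwise indicated. They do not name the mouse behind each library of nuclei, nor say whether QCM and SCM samples of the same number shared one. There were 3 samples per medium, and the RNA of frozen nuclei was counted as unique molecular identifiers (UMIs, 1 per captured RNA molecule).

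Enterocytes are the absorptive cells of the small intestine. They arise from Lgr5-expressing crypt stem cells through dividing progenitors, and as they leave the crypt they switch on brush-border enzymes, nutrient transporters and enzymes of drug and bile acid metabolism. The genes that lead cluster 5 have separate known roles. Fam129a, now also called Niban1, is a cytoplasmic protein induced by stress of the endoplasmic reticulum. Slc30a10 is a plasma membrane transporter that exports manganese, Csgalnact1 starts chondroitin sulfate chains, Grb10 is an adaptor that restrains the insulin receptor, and Ptpn22 is a tyrosine phosphatase best known from lymphocytes.

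Because the summed levels of Fam129a, Slc30a10 and Ptpn22 were high in cluster 5 in most samples, the sequence around their starts is shown. It is as RefSeq gives it for GRCm38.p6, where 4 of the 5 leading genes were matched. Each run covers 250 bases before and 50 bases after an annotated start and reads 5′ to 3′ on the plus strand, on which all 3 genes lie. Capitals mark a match to the HNF4 motif CAAAGTCCA on either strand.
Fam129a, chr1:151571123-151571422: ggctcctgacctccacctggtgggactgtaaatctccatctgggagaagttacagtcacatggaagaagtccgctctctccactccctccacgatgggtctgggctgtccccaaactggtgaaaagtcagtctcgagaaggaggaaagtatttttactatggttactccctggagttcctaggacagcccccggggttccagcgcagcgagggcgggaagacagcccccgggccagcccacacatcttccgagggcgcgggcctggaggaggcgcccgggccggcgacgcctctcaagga
Slc30a10, chr1:185454598-185454897: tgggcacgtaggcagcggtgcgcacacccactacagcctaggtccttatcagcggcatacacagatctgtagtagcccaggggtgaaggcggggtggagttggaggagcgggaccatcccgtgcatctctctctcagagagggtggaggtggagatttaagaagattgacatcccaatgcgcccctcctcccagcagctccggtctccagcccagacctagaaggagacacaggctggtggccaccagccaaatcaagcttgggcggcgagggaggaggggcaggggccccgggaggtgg
Ptpn22, chr3:103859545-103859844: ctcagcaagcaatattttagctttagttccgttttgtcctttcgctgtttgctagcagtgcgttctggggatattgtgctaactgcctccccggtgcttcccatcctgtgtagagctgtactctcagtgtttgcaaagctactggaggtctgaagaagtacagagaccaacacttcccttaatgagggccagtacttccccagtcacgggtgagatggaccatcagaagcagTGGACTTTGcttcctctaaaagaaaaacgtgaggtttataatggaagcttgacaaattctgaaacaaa
The motifs searched were CAAAGTCCA for HNF4 factors, then AGATAA for those of the GATA family, and TTTATNG for CDX factors, 3 families of transcription factors of the intestinal epithelium. They were chosen after the sequences had been seen and were read on both strands. The HNF4 letters occurred in 0.475% of all 32851 promoter windows, those of GATA in 11.2% and those of CDX in 10.9%. Among the windows of the cluster's leading genes, the HNF4 letters, read as TGGACTTTG, stood in this start of Ptpn22, and the CDX letters in 1 of the starts of Grb10. The windows of Fam129a and Slc30a10 held none of these letters, and neither did the other windows of Ptpn22 and Grb10, which are not shown. A match is a description of the letters and not a binding site.

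Depth differed between samples more than between media. Cluster 5 yielded 1773875, 1886550 and 1213380 UMIs in the QCM replicates and 102449, 994520 and 1978076 UMIs in the SCM replicates, so that 1 UMI in SCM replicate 1 was worth 9.76 CPM (UMIs scaled to a common total per sample and cluster) and between 0.506 and 1.01 CPM elsewhere. Its 20 nuclei make SCM replicate 1 the least precise sample, and QCM replicate 1 stood apart by its depth, with a median of 8167 UMIs per cluster 5 nucleus. These libraries, with 3791 nuclei in QCM replicate 1 and 430 in SCM replicate 1, also shared 175 nucleus barcodes, 40.7% of the nuclei of SCM replicate 1. Any other pair of samples shared at most 36, found between the far larger QCM and SCM replicates 3 (10144 and 10833 nuclei). Of the 175 shared barcodes, 40 (22.9%) were in the same cluster in both libraries, and 7 of the 20 cluster 5 nuclei of SCM replicate 1 carried a shared barcode. Results are therefore also given without these nuclei or without the replicate 1 samples where that changed them.

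Cluster 5 nuclei were deeper than the other nuclei in 5 of 6 samples, by a ratio of medians of 1.04 to 1.92. Their median was 8167, 2622 and 1867 UMIs in the QCM replicates, beside 8260, 2277 and 1562 in the other nuclei of the same samples. In the SCM replicates it was 5737, 2643 and 2113 UMIs, beside 2989, 2544 and 1954. The median mitochondrial share was lower in cluster 5 than in the other nuclei in each of the 6 samples, ranging from 0.293% to 3.31% in cluster 5 and from 0.847% to 3.76% in the others. The epithelial markers, such as Epcam, a surface adhesion protein of epithelia (724 CPM, mean of 6 samples), were present in cluster 5. The summed level of the immune cell markers was 9.01 to 19.5 CPM in cluster 5 and 19.4 to 39.6 CPM in the other nuclei, and that of the stromal and endothelial markers 5.64 to 29.3 CPM and 8.30 to 15.9 CPM. Of the 14 immune markers measured, 6 had no UMI in cluster 5 of any sample, as had 4 of the 13 stromal and endothelial ones.

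Cluster 5 was compared with all other nuclei of the same sample by the ratio of summed counts, as log2((CPM + 1) ratio). The clusters were made from these same counts, so these ratios describe the cluster and carry no test. Of 10147 genes at a mean of at least 10 CPM in cluster 5, 2 (0.0197%) were at least 2-fold higher in all 6 samples, Fam129a and the predicted gene Gm6831. Without SCM replicate 1 there were 6 such genes (0.0598%), with replicates 2 and 3 alone 23, and without the nuclei with shared barcodes 1. In at least 5 samples 13 genes were 2-fold higher, the 5 leading genes among them. In the other direction, 12 of 10231 genes (0.117%) were at least 2-fold lower in all 6 samples, and 31 with replicates 2 and 3 alone. Over the 10502 genes at this level in either set of nuclei the median log2 ratio was -0.02. Most genes of cluster 5 thus lay near the level of the other nuclei, and a short list stood out.

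Fam129a led that list. It was at 26.5, 112 and 113 CPM in cluster 5 of the QCM replicates and at 19.5, 81.4 and 90.0 CPM in the SCM replicates, while the other nuclei of the 6 samples held between 7.90 and 14.7 CPM. The lowest values belonged to both replicate 1 samples, and every cluster 5 value was above every value of the other nuclei. The median log2 ratio was 2.79, ranging from 1.06 in SCM replicate 1, where it rested on 2 UMIs, to 3.44 in QCM replicate 2. The gene lies on chromosome 1 at 151571186 to 151721939 on the plus strand (GRCm38).

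Slc30a10, the manganese exporter, was at 27.1, 76.3 and 71.7 CPM in cluster 5 of the QCM replicates and at 58.6, 66.4 and 70.3 CPM in the SCM replicates. Other nuclei held between 8.31 and 16.4 CPM, so these ranges did not overlap either. The median log2 ratio was 2.20, and 5 of 6 samples passed 2-fold, with QCM replicate 1 at 0.85. Slc30a10 lies at 185454848 to 185468762 on chromosome 1, on the plus strand.

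Ptpn22 was at 10.7, 94.4 and 66.8 CPM in cluster 5 of the QCM replicates and at 0, 72.4 and 63.7 CPM in the SCM replicates, beside 3.51 to 12.5 CPM in the other nuclei. The absence of UMIs in SCM replicate 1 allows up to 29.3 CPM (3 UMIs, counting error only). In the remaining 5 samples the log2 ratio lay between 1.38 and 2.96. Grb10 was low throughout, at 10.7, 19.6 and 11.5 CPM in the QCM replicates and 0, 14.1 and 9.10 CPM in the SCM replicates. In the other nuclei Grb10 was at 2.14 to 4.55 CPM, and its log2 ratio was between 1.38 and 2.02 in the 5 samples with a UMI. Csgalnact1 was at 37.2, 81.1 and 53.6 CPM in the QCM replicates and 29.3, 66.4 and 55.6 CPM in the SCM replicates, against 11.3 to 23.7 CPM in the other nuclei. Its median log2 ratio was 2.01, and SCM replicate 1, with 3 UMIs, was the sample under 2-fold, at 0.30. As for Fam129a, both replicate 1 samples held the lowest levels of Ptpn22 and Csgalnact1, but QCM replicate 1 did not for Grb10.

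**Figure D1:**
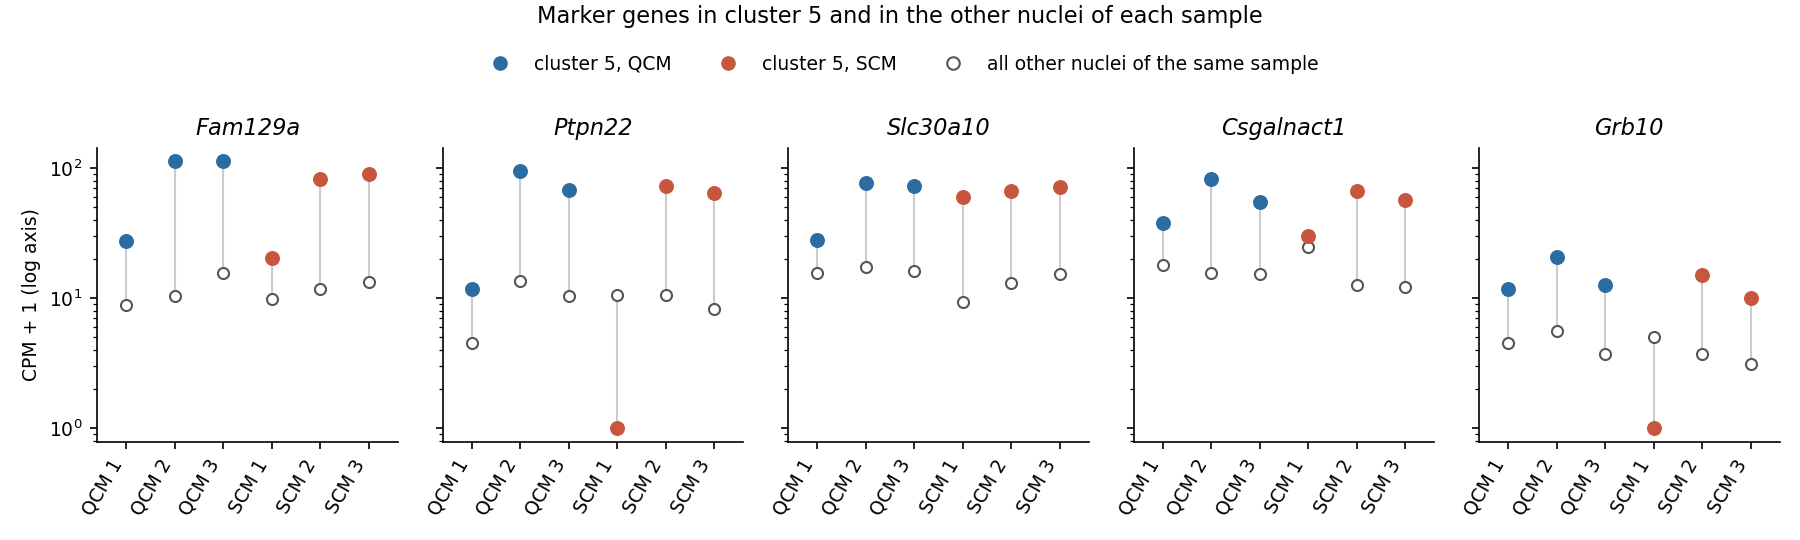
CPM + 1 on a log axis for the 5 leading genes, in cluster 5 (filled points, coloured by medium) and in all other nuclei of the same sample (open points). Fam129a, Slc30a10 and Csgalnact1 lay above the other nuclei in all 6 samples, and Ptpn22 and Grb10 had no UMI in the 20 nuclei of SCM replicate 1.

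Apart from these, the genes with the highest median ratio that were higher in all 6 samples were Gm6831 (2.27), Gm2895 (1.97), Gm31224 (1.81), Enpep (1.73), Gm19619 (1.65), Tmem237 (1.60), D5Ertd615e (1.54), Fyn (1.52) and Unc5b (1.51). Those whose symbol starts with Gm are predicted genes with no known role. Enpep encodes aminopeptidase A, a brush-border peptidase, and stood at 34.2 to 60.4 CPM in cluster 5 against 5.29 to 22.2 CPM in the other nuclei, again without overlap. Unc5b, a receptor for netrins, was at 29.3 to 75.8 CPM against 16.1 to 22.5 CPM. Fyn is a kinase of the Src family and Tmem237 a protein of the ciliary transition zone. In all, 651 genes were higher than in the other nuclei in all 6 samples and 853 were lower, most of them by less than 2-fold.

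The lowest median ratios belonged to Ptprn2 (-2.57), 9030622O22Rik (-2.46), Gm44985 (-2.28), Bcas1 (-2.23), Kcnb2 (-2.19) and Ern2 (-2.17). Genes entered this end of the ranking by their level in the other nuclei, and Ptprn2 and Ern2 are known from secretory cells. Ptprn2 is a protein of the dense-core granules of endocrine cells, and was at 19.7, 24.4 and 26.4 CPM in cluster 5 of the QCM replicates and at 0, 22.1 and 21.2 CPM in the SCM replicates, against 60.3 to 171 CPM in the other nuclei. Ern2 is the stress sensor of mucus-secreting cells. Cluster 9 held 2164 CPM of Ptprn2 and cluster 6 held 143 CPM of Ern2; cluster 5, at 19.0 and 3.25 CPM, was near clusters 0 and 2 (20.4 and 20.3 CPM of Ptprn2). The 12 genes at least 2-fold lower in all 6 samples also included the enteroendocrine regulator Rfx6 (-2.05) and the fetal marker Msln (-1.84).

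The leading genes were not all particular to cluster 5. By the mean level over samples with at least 10 nuclei of a cluster, cluster 5 ranked at the top of the 15 clusters for Fam129a, Ptpn22, Csgalnact1, Grb10, Gm6831, Gm2895, Tmem237, D5Ertd615e and Unc5b. The SDs of cluster 5 and the next cluster overlapped for each of these genes, Csgalnact1 included (53.9 ± 18.9 against 35.2 ± 8.96 CPM in cluster 8), and the leads were small for Unc5b, at 55.1 ± 17.6 CPM against 50.8 ± 21.3 CPM in cluster 7, and for D5Ertd615e, at 17.7 ± 11.4 CPM against 16.3 ± 12.0 CPM in cluster 7. Gm19619 (15.9 ± 3.62 against 49.4 ± 45.8 CPM), Fyn (32.1 ± 10.6 against 41.9 ± 52.3 CPM) and Gm31224 (59.96 ± 43.5 against 60.1 ± 31.6 CPM) had a higher mean in cluster 8. SCM replicate 1 held 11 nuclei of cluster 8. The order turned for Fyn over the 5 samples with at least 50 nuclei of both clusters. There Fyn was at 28.8 ± 7.51 CPM in cluster 5 and 22.1 ± 21.9 CPM in cluster 8. Gm19619 (17.2 ± 2.21 and 31.1 ± 10.8 CPM) and Gm31224 (68.0 ± 43.3 and 68.9 ± 26.1 CPM) kept their order. For Slc30a10 cluster 5 was below cluster 8, with 61.7 ± 18.0 CPM against 92.5 ± 17.5 CPM (SD, n = 6 samples). Enpep had the same order, with 47.0 ± 11.1 CPM in cluster 5 and 82.5 ± 36.7 CPM in cluster 8. Levels of Gm6831 overlapped between the pair, at 39.0 ± 26.4 CPM and 37.1 ± 21.5 CPM. Fam129a was at 73.7 ± 41.2 CPM in cluster 5, 39.4 ± 21.2 CPM in cluster 8, 7.97 ± 2.04 CPM in cluster 2 and 6.55 ± 1.51 CPM in cluster 0. For Ptpn22, the levels were 51.3 ± 37.3, 18.2 ± 11.5, 7.02 ± 5.35 and 6.01 ± 3.20 CPM in clusters 5, 8, 2 and 0. The next cluster after 5 was cluster 8 for Fam129a and Csgalnact1, cluster 14 for Ptpn22 (23.3 ± 15.4 CPM) and cluster 6 for Grb10 (6.46 ± 4.68 CPM).

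**Figure D2:**
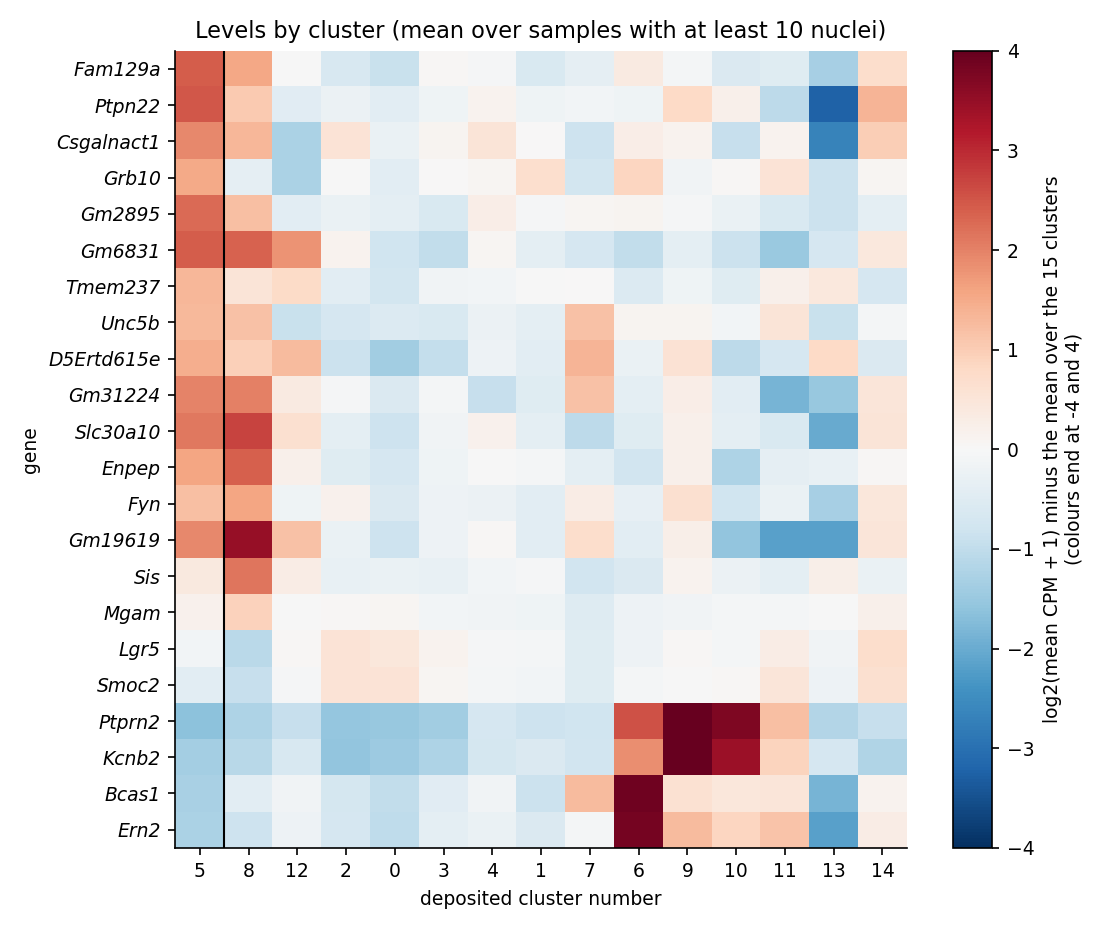
Level of each gene in the 15 deposited clusters, as log2(mean CPM + 1) minus the gene's mean over clusters, with red above and blue below that mean. Of the leading genes of cluster 5 (left column), Fam129a, Ptpn22, Slc30a10 and Csgalnact1 were also raised in cluster 8 and Grb10 was not, while Sis, a digestive enzyme, peaked in cluster 8 and Ptprn2 and Kcnb2 in clusters 9 and 10.

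Likeness across all genes depended on the measure. Over 11721 genes, log2 levels of cluster 5 had the highest Spearman correlations with clusters 2 (0.976), 0 (0.972), 3 (0.971) and 4 (0.971), and cluster 8 (0.957) came behind clusters 12, 1 and 6 as well. Once each gene was centred on its mean over the 15 clusters, Pearson's r was 0.33 with cluster 8, 0.23 with cluster 14, 0.21 with cluster 2 and 0.16 with cluster 0. Correlations were lowest with clusters 10 (-0.33), 9 (-0.26) and 11 (-0.26). They were also negative with clusters 13 (-0.18), 6 (-0.16) and 1 (-0.12), and slightly so with clusters 4, 7, 12 and 3. These are correlations across genes in clusters that share libraries, so they describe likeness and have no replicates.

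The leading genes were sparsely counted in single nuclei. To compare clusters at equal depth, each nucleus was thinned to 1000 UMIs, which left out 59 cluster 5 nuclei and 8.33% of all nuclei. At this depth 23.5% ± 11.1 (SD, n = 6 samples) of cluster 5 nuclei held a UMI of at least 1 of the 5 genes and 3.46% ± 2.27 held at least 2. The shares for cluster 8 were 15.4% ± 6.67 and 1.37% ± 1.10. Clusters 2 and 0 stood at 4.40% ± 1.49 and 2.62% ± 1.35 for at least 1 gene, and cluster 11, where these genes are also low, at 2.75% ± 2.01. Clusters 4 and 14 were higher than these, at 5.25% ± 1.43 and 6.35% ± 2.64 (3 samples). The share in cluster 5 lay at 7.34% in QCM replicate 1, the lowest of the 6 samples and below cluster 14 there (8.82%), and at 12.5% to 35.8% in the others. Without thinning, 49.8% of cluster 5 nuclei (30.0% to 69.4% over samples) had at least 1 of the genes, 50.5% of cluster 8 nuclei and 15.8% of cluster 11 nuclei, at median depths of 2360, 2366.5 and 2080.5 UMIs. In cluster 14, at a median of 39432.5 UMIs, it was 83.6%.

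**Figure D3:**
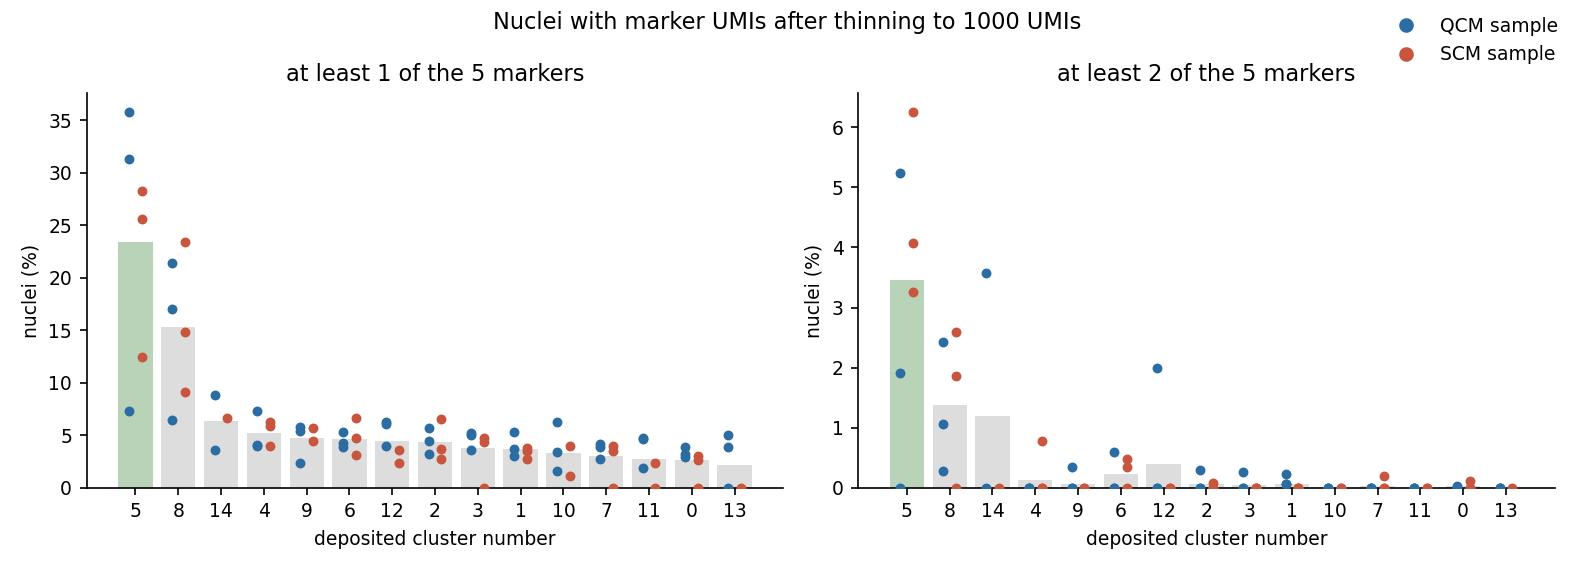
Percentage of nuclei with a UMI of at least 1 (left) or at least 2 (right) of the 5 leading genes after thinning to 1000 UMIs, by deposited cluster. Bars are means over samples with at least 10 nuclei and points are samples, and cluster 5 had the highest mean in both panels, 23.5% and 3.46%, with QCM replicate 1 at 7.34% and 0.

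As a group, absorptive genes were near the level of the other nuclei. Of 21 enterocyte markers at 10 CPM or more, 11 had a median ratio above 0, 1 (Enpep) was at least 2-fold higher in 5 samples, and the median over the list was 0.05, against -0.02 over all genes, of which 4734 of 10502 were above 0. In cluster 8 the same list had a median of 1.45. The median was 0.47 for the 2 genes of the villus bottom, -0.03 for 7 of the villus middle and -0.20 for 5 of the villus tip. Sis, the sucrase of the brush border, was at 489, 602 and 825 CPM in cluster 5 of the QCM replicates and at 87.8, 473 and 644 CPM in the SCM replicates, beside 106 to 535 CPM in the other nuclei. These ranges overlapped, and the log2 ratio was above 0 in 4 of 6 samples, with a median of 0.45. Mgam, the maltase of the same membrane, had a ratio of 0.23 and the fatty acid binding protein Fabp1 of -0.03. Of the 25 enterocyte transcription factors at this level 17 were above 0, with a median of 0.09, and Tcf7l2, a partner of beta-catenin, was higher in all 6 samples (median 0.42). Nr1h4, the bile acid receptor FXR, chosen after its values were seen, was at 52.4 to 135 CPM in cluster 5 against 38.7 to 66.6 CPM elsewhere (1.06). Over the 5 samples with at least 50 nuclei of clusters 5 and 8, Nr1h4 was at 106 ± 36.3 and 170 ± 51.6 CPM.

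Of the genes of drug and bile acid metabolism, 19 of 23 had a median ratio above 0 in cluster 5, beside 4734 of all 10502 genes, and the list's median was 0.20, compared with 1.25 in cluster 8. Abcc2, an export pump for conjugated compounds, was at 830 ± 177 CPM in cluster 5, 1593 ± 367 CPM in cluster 8 and 588 ± 137 CPM in cluster 0. Cyp2c55, an oxidising enzyme of the cytochrome family, ran in the same order at 673 ± 91.2, 976 ± 143 and 509 ± 83.9 CPM. No gene of this list was 2-fold higher in 5 samples.

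Stem cell and cycling genes were slightly lower than in the other nuclei. Of 16 stem cell markers 1 had a median ratio above 0, with a list median of -0.23, and none of the 16 cycling genes did (-0.24). Cluster 8 stood lower, at -0.65 and -0.78. Lgr5, the receptor that marks crypt stem cells, was at 412 ± 221 CPM in cluster 5, 649 ± 299 CPM in cluster 2, 611 ± 294 CPM in cluster 0 and 214 ± 68.9 CPM in cluster 8. Smoc2, a matrix protein of the same cells, was lower than in the other nuclei in all 6 samples (median -0.67), at 516 ± 188 CPM against 999 ± 377 CPM in cluster 0. Cell division genes kept most of their level, with Cenpf at -0.04 and Kif11 at -0.26.

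**Figure D4:**
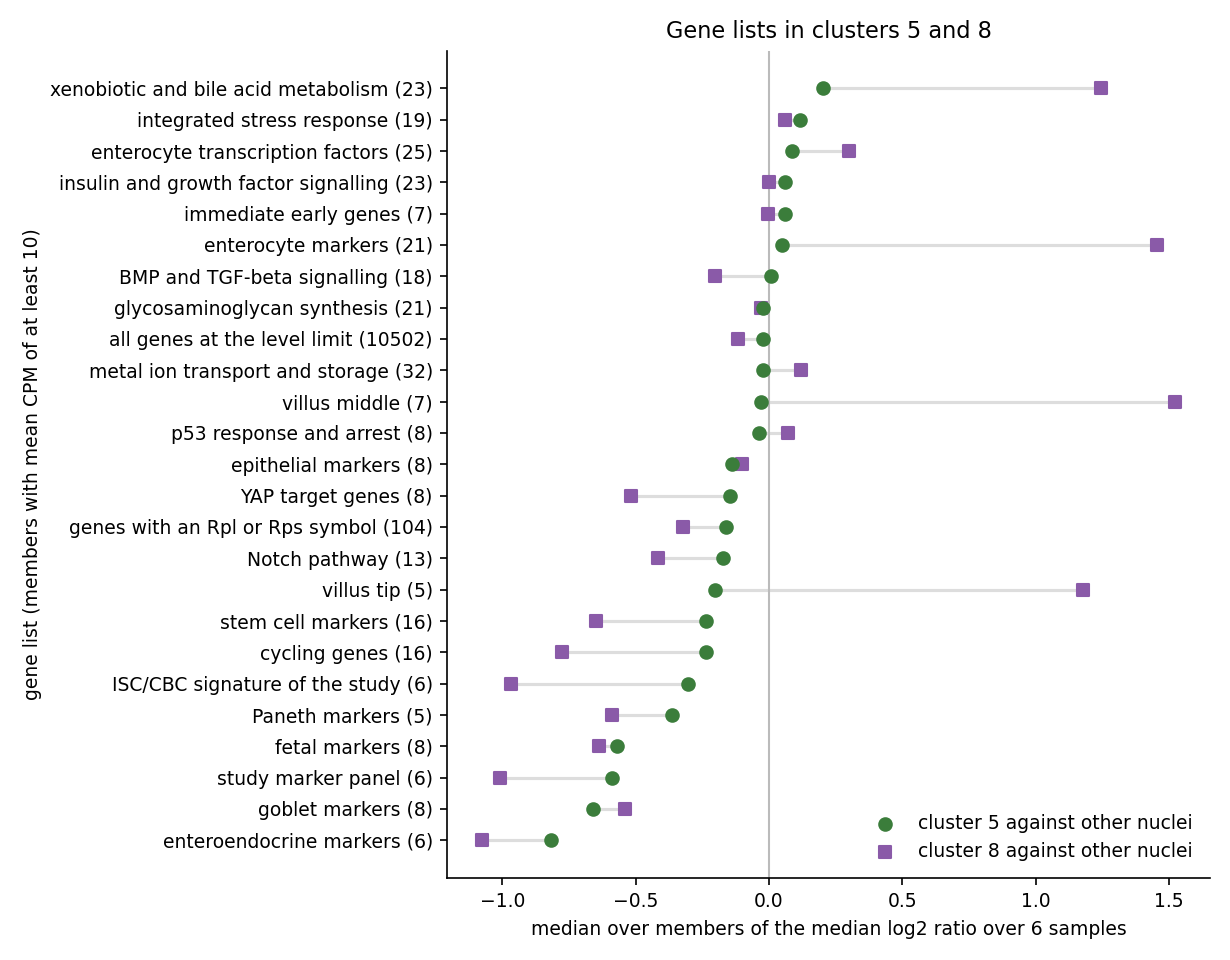
Median log2 ratio of each gene list in cluster 5 (circles) and cluster 8 (squares) against all other nuclei, with the number of members at 10 CPM or more in parentheses. Enterocyte markers stood at 0.05 in cluster 5 and 1.45 in cluster 8, and cycling genes at -0.24 and -0.78.

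A direct comparison with clusters 8 and 2 used the 5 samples with at least 50 nuclei of each cluster, a choice made after the data had been seen. Against cluster 8, of 10395 genes 1, Grb10, was at least 2-fold higher in cluster 5 in all 5 samples, and 64 (0.616%) were at least 2-fold lower. Grb10 was at 13.01 ± 4.11 CPM in cluster 5 and 2.64 ± 1.10 CPM in cluster 8 (SD, n = 5). Genes entered this end by their level in cluster 5, and Grb10 is 1 of the 5 leading genes, so this describes the cluster and is no test. Fam129a and Ptpn22 were higher in cluster 5 in each sample, with median log2 ratios of 1.37 and 1.61, and the dividing-cell genes Depdc1b (1.32), Aspm (1.22) and Ndc80 (1.21) were among the 12 highest. The median over cycling genes was 0.55 and that over stem cell markers 0.38, beside 0.07 for all genes. Genes entered the other end by their level in cluster 8. Slc13a2, a citrate transporter, was at 1.52 ± 1.87 CPM in cluster 5 and 34.1 ± 7.47 CPM in cluster 8, and Slc15a1, the peptide transporter, at 2.23 ± 2.13 and 30.0 ± 15.3 CPM. The cholesterol exporter Abca1 was at 5.37 ± 3.86 and 75.6 ± 21.0 CPM. Over the enterocyte markers the median was -0.99.

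Against cluster 2, 16 of 10438 genes (0.153%) were at least 2-fold higher in cluster 5 in all 5 samples and 3 (0.0287%) at least 2-fold lower. Fam129a (3.36), Gm19619 (2.73), Slc30a10 (2.71) and Ptpn22 (2.71) had the highest ratios. As above, genes entered each end by their level in the cluster where they were higher. Slc9a3, the sodium-proton exchanger of the brush border, was at 40.9 ± 20.9 CPM in cluster 5 and 8.00 ± 4.39 CPM in cluster 2 (2.29). Oasl1, an interferon-induced gene, had a ratio of 2.54, and Sis was higher in each of the 5 samples (0.68). Among the lowest were Nrp1, a semaphorin co-receptor (-2.17), and Sox5, a transcription factor (-1.84). Lgr5 (-0.65) and Smoc2 (-1.01) were lower in each sample.

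Lists for the other lineages were low, and those built around the known roles of the leading genes had medians near 0. The median ratio was -0.66 for goblet markers, -0.36 for Paneth markers, -0.82 for enteroendocrine markers and -0.57 for fetal markers, and 0 of 8, 0 of 5, 0 of 6 and 2 of 8 members were above 0. The goblet mucin Muc2 was at least 2-fold lower in 5 samples (median -1.44). Areg, an EGF receptor ligand in the fetal list, went the other way at 107 to 306 CPM against 95.2 to 153 CPM (0.75), with overlap. Tuft and stromal lists had no member at 10 CPM. Summed levels of secretory genes were nevertheless well above 0 in cluster 5, at 350 to 2553 CPM for Paneth markers in the QCM replicates and 249 to 449 CPM in the SCM replicates, where the other nuclei of the 6 samples held 346 to 2644 CPM. Their part in the results below was not tested.

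Metal ion transport and storage genes had a median ratio of -0.02 with 15 of 32 above 0. Next to Slc30a10, the importers Slc39a14, chosen after its values were seen (126, 347 and 383 CPM in the QCM replicates, 68.3, 257 and 370 CPM in the SCM replicates; median ratio 0.77) and Slc11a2 (0.65) were higher in 5 of 6 samples. The metallothioneins Mt1 (-0.07) and Mt2 (-0.06) were level with the other nuclei. Glycosaminoglycan synthesis genes had a median of -0.02, with Csgalnact1 the sole member of 21 at least 2-fold higher in 5 samples and Ext1 and Hs2st1 both at -0.01. Insulin and growth factor signalling genes had a median of 0.06, and the insulin receptor Insr stood at 0.14. The list for the integrated stress response, a pathway that induces Fam129a, also held sensors and a chaperone of endoplasmic reticulum stress. Its median was 0.12, with 12 of 19 above 0. Fam129a itself was its only member at least 2-fold higher in 5 samples, and Ern2 the only one as much lower. Its most abundant members were the chaperone Hspa5 (-0.06), the stress sensor Ern1 (0.31), Nupr1 (0.14) and the amino acid transporter subunit Slc3a2 (0.12). BMP and TGF-beta signalling (0.01), Notch (-0.17), YAP targets (-0.14), p53 response (-0.04), immediate early genes (0.06) and epithelial markers (-0.14) lay near 0. Nuclear noncoding RNAs (Malat1 0.20, Neat1 0.30) were slightly higher.

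The design asks whether the medium of senescent fibroblasts alters these nuclei. The share of nuclei in cluster 5 was 4.67%, 6.85% and 5.02% in the QCM replicates and 4.65%, 5.89% and 6.54% in the SCM replicates. The media overlapped, with means of 5.51% ± 1.17 and 5.69% ± 0.958 (SD, n = 3 each). Tested over the 15 clusters with edgeR's quasi-likelihood test, SCM stood to QCM as 0.06 ± 0.28 on the log2 scale (SE; adjusted p = 0.981), and it ranged from -0.06 to 0.24 as single samples were left out. The 95% Wilson interval of SCM replicate 1, 3.03% to 7.07%, spans the values of all other samples, and covers counting error only. A share cannot show whether the number of these cells per organoid differed. Median UMIs per cluster 5 nucleus were 4219 ± 3440 in QCM and 3498 ± 1957 in SCM (two-sided exact permutation p = 0.9, where 0.1 is the smallest p that 3 samples against 3 allow).

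No gene was called between media within cluster 5. EdgeR's quasi-likelihood test on counts summed per sample covered 11273 genes, of which 0 (0%) passed an adjusted p of 0.05, the smallest adjusted p being 0.989, while DESeq2 and voom also called 0. With no filter on low counts edgeR tested 25014 genes and called 201, 7 higher and 194 lower in SCM. That fit lets in genes with few UMIs, and every fit with the filter called 0, so these calls are not read as a result. In the main fit, at an unadjusted p under 0.05, 73 genes (0.648%) were higher in SCM and 411 (3.65%) lower. CPM did not overlap between media for 577 genes higher in SCM (5.12%) and 380 lower (3.37%). None of the leading genes stood out. Fam129a had a log2 ratio of SCM to QCM of -0.22 ± 0.49 (SE), Ptpn22 of -0.04 ± 0.65, Slc30a10 of 0.12 ± 0.34, Csgalnact1 of -0.12 ± 0.32 and Grb10 of -0.52 ± 0.47, and their CPM overlapped between media.

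The genes with the smallest unadjusted p among those that did not overlap are given as values, since all had an adjusted p of 0.989 in edgeR. Ano1, a calcium-activated chloride channel, was at 3.95, 11.1 and 26.4 CPM in cluster 5 of the QCM replicates and at 87.8, 67.4 and 52.1 CPM in the SCM replicates (log2 ratio 2.17 ± 0.51 SE). In the other nuclei of the same samples it was at 9.19, 22.8 and 24.4 CPM in QCM and 63.2, 183 and 62.0 CPM in SCM, so that the difference between media was not limited to cluster 5. Mgam2-ps, annotated as a pseudogene related to Mgam, was at 19.2, 23.9 and 24.7 CPM in QCM and 166, 47.3 and 63.7 CPM in SCM (1.60 ± 0.39). Reads of Mgam2-ps may be shared with its paralogs. Pdgfc, a growth factor, stood at 3.38, 3.18 and 4.12 CPM in QCM and 19.5, 11.1 and 12.1 CPM in SCM (1.68 ± 0.45), on 2 to 24 UMIs a sample.

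On the lower side, the lysosomal protease Ctsz was at 143, 81.1 and 84.9 CPM in the QCM replicates and 39.0, 49.3 and 48.5 CPM in the SCM replicates (-1.26 ± 0.34). Cops6, a subunit of the COP9 signalosome, was at 55.2, 32.9 and 37.1 CPM in QCM and 19.5, 16.1 and 19.7 CPM in SCM (-1.32 ± 0.37). Hmg20b, a chromatin protein, was at 62.6, 50.4 and 70.1 CPM in QCM and 29.3, 32.2 and 35.4 CPM in SCM (-0.99 ± 0.29). These 3 genes were picked among those whose values did not overlap and were lower in SCM, so that pattern is no test. In SCM replicate 1, where 1 UMI was worth 9.76 CPM, these values rest on few UMIs, 3 of them for Hmg20b. Counting error is therefore large there.

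**Figure D5:**
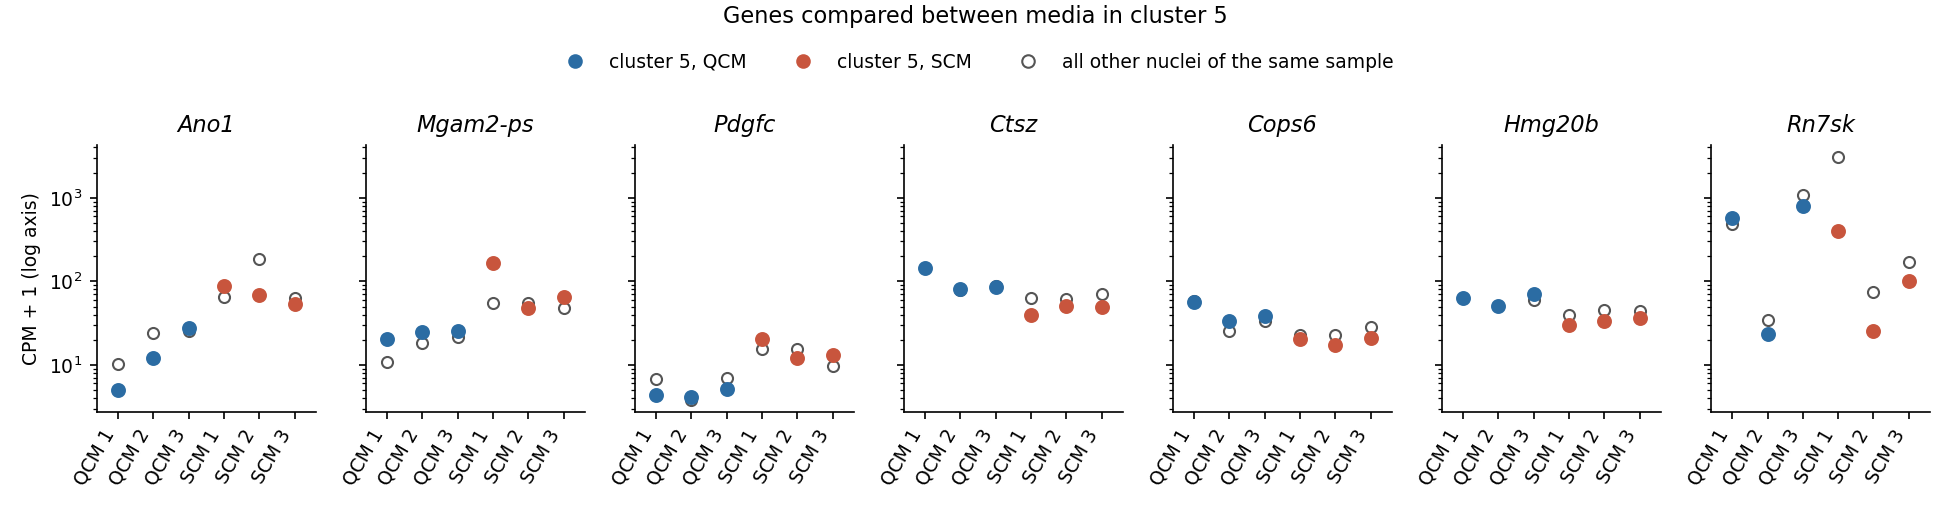
CPM + 1 on a log axis for the 6 genes named for the comparison of media and for Rn7sk, in cluster 5 (filled points) and in all other nuclei of the same sample (open points). The 6 genes were picked among those whose cluster 5 values did not overlap between media, and their adjusted p was 0.989 in edgeR.

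Several lists had medians below 0 between media. For all 11273 genes the median medium ratio (SCM to QCM, log2) stood at -0.02. It was -0.80 for 20 enterocyte markers, of which 4 had an unadjusted p under 0.05 and all 4 were lower (among them Apoa1, Apoa4 and Fabp2), beside 411 (3.65%) of all genes, and 1 of the 20 was higher at any p. It was -1.84 for 5 Paneth markers, -1.48 for 6 goblet markers, -1.05 for 7 enteroendocrine markers and -0.65 for 25 genes of drug and bile acid metabolism. At an unadjusted p under 0.05, 3 Paneth, 5 goblet and 2 enteroendocrine markers and 8 genes of drug and bile acid metabolism were lower, and none of these lists had a member that was higher. Most members overlapped between media. CPM were lower in SCM without overlap for 0 of 20 enterocyte, 1 of 5 Paneth, 2 of 6 goblet and 0 of 7 enteroendocrine markers. The same held for 1 of 25 genes of drug and bile acid metabolism, beside 380 (3.37%) of all genes. These lists were not compared between media in the other nuclei. Genes with an Rpl or Rps symbol, most of them ribosomal proteins, had a median of -1.22, and their share of cluster 5 UMIs was 13.9%, 4.48% and 8.77% in the QCM replicates and 3.52%, 2.46% and 6.51% in the SCM replicates. Apoa4, an apolipoprotein, shows how 1 library weighed: it was at 666, 21.2 and 66.8 CPM in the QCM replicates and 29.3, 18.1 and 43.0 CPM in the SCM replicates (-3.24 ± 1.13), and these overlapped. With the ribosomal share as a covariate 95 genes had an unadjusted p under 0.05 in place of 484. Of the 95, 52 were higher and 43 lower in SCM, where the main fit had 73 and 411. Without QCM replicate 1 it was 125 genes (72 higher and 53 lower). Without QCM replicate 2 it was 1241 (150 and 1091), and without QCM replicate 3 553 (74 and 479). Leaving out SCM replicate 1 gave 264 (88 and 176), SCM replicate 2 87 (29 and 58) and SCM replicate 3 656 (90 and 566).

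Fetal and YAP lists had medians above 0, at 0.56 for 7 fetal markers and 0.37 for 10 YAP targets. In the fetal list Clu, Anxa1 and Ly6a had an unadjusted p under 0.05 and were higher in SCM. So were 2 of the 10 YAP targets, beside 73 (0.648%) of all genes tested. Of all 11273 genes 5443 were higher in SCM at any p, beside 6 of 7 fetal markers and 8 of 10 YAP targets. The median was 0.18 for 16 stem cell markers, with Lgr5 at 0.65 ± 0.41, but 0.02 for 6 genes of the study's stem cell signature, of which 3 were higher, and no member of either list had an unadjusted p under 0.05. Clu, a marker of the revival state of the epithelium, was at 32.7, 9.54 and 19.0 CPM in cluster 5 of the QCM replicates and at 29.3, 140 and 42.0 CPM in the SCM replicates (1.78 ± 0.59), with overlap. It was higher in the other nuclei, at 15.7 to 45.1 CPM in QCM and 62.4 to 373 CPM in SCM. Cycling genes had a median of -0.32, the integrated stress response -0.22 and BMP and TGF-beta signalling 0.22, with 16 of 19 higher. The lists for metal ions (-0.09), glycosaminoglycan synthesis (0.06) and insulin signalling (0.12) were nearer to 0. None of these genes was called.

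Whether the medium effect in cluster 5 differed from that in the other nuclei was tested as an interaction in 13899 genes, with each sample's 2 sets of nuclei paired. EdgeR called 1 gene (0.00719%), and 436 (3.14%) had an unadjusted p under 0.05. The gene called was Rn7sk, the 7SK small nuclear RNA that holds back transcription elongation. Its level varied widely between libraries, at 568, 22.3 and 799 CPM in cluster 5 of the QCM replicates and 400, 24.1 and 100 CPM in the SCM replicates. In the other nuclei it was at 482, 33.8 and 1081 CPM in QCM and 3102, 73.9 and 168 CPM in SCM. The interaction was -1.39 ± 0.20 (log2, SE) with an adjusted p of 1.91e-06 in edgeR, and cluster 5 lay below the other nuclei in 5 of 6 samples. This SE is taken from the F value of the fit, which shares its estimate of spread over genes. It need not match the spread of Rn7sk between samples. As single samples were left out the interaction ran from -2.44, without SCM replicate 3, to -0.74. DESeq2 and voom did not call Rn7sk, and without the replicate 1 samples the interaction was -0.40, with an adjusted p above 0.05. The remaining genes named by the rule were not called by edgeR, with Gm10062 (1.71 ± 0.43, adjusted p = 0.355), Slc11a2 (0.57 ± 0.17, 0.999, and 0.32 to 0.80 as samples were left out) and Prelid2 (0.43 ± 0.13, 0.999) on the higher side and Tns4 (-2.56 ± 0.62, 0.305) and Trp53inp1 (-1.01 ± 0.25, 0.352) on the lower. Without QCM replicate 1 edgeR called Gm10062 (2.46, adjusted p = 0.0139), which ranged from 1.15 to 2.46 as samples were left out. With replicates 2 and 3 alone it called 3 other genes, named after their values were seen, the brush-border protease Mep1b (-1.60, adjusted p = 0.00011), the cadherin Cdh13 (-2.04, adjusted p = 0.000956) and the actin-binding protein Ablim1 (-0.62, adjusted p = 0.0316). For the leading genes the interaction was 0.56 ± 0.22 for Slc30a10, 0.40 ± 0.23 for Csgalnact1, 0.27 ± 0.25 for Ptpn22, 0.18 ± 0.42 for Grb10 and -0.03 ± 0.23 for Fam129a.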

How the data were processed

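Per the methods of the study and the submitters' processing notes, the authors counted reads with Cell Ranger 2.1.1 on the mm10 mouse genome and removed nuclei more than 3 mean absolute deviations off in mitochondrial share, reads or features. They clustered nuclei with Leiden after Harmony integration in scanpy. The deposited matrices hold UMI counts per gene and nucleus, not normalized. The deposited table of nuclei gives the cluster number and sample, the mitochondrial share as a fraction, and map coordinates as a score, which was not used. Of 31319 genes 31244 were matched to a symbol, with coordinates from GENCODE M21 on GRCm38, and some genes were left out.

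Every deposited nucleus entered. No doublet caller was run; leaving out the 5% of nuclei with the most UMIs in each sample was an alternative. Counts were summed per sample and cluster, so the sample was the replicate. CPM ratios used a pseudocount of 1 and a mean of at least 10 CPM. Media were compared with edgeR 4.0.16 (filterByExpr, TMM, quasi-likelihood test, Benjamini-Hochberg over all genes), in R 4.3.3, with DESeq2 1.42.0 and limma 3.58.1 (voom) as alternatives. The tests were first tested on simulated data, where the comparison of media recovered most 4-fold changes and missed most 2-fold ones. Both the comparison of media and the interaction made a few false calls there. Exact permutation tests and thinning used scipy 1.17.1 and numpy 2.4.6.

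The genes named were the 5 markers, the 12 highest and 6 lowest by median ratio with 1 direction in all samples, the genes called or else the 3 smallest p per direction without overlap (CPM for the media, ratios to other nuclei for the interaction), up to 4 members of each list by level and any member 2-fold off in all 6 samples, and the study's marker panel. Exceptions are said to be chosen after seeing their values, as were the genes named from the comparisons with clusters 8 and 2 and the list members named for a small p. The cluster, its members and the gene lists (463 of 478 genes in the matrix) were chosen with earlier results of these data known.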

Additional observations from a re-analysis of the deposited data

Results flagged for a closer look

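The medium effect on Rn7sk differed between cluster 5 and the other nuclei by the interaction term of edgeR's quasi-likelihood test, at -1.39 on the log2 scale (adjusted p = 1.91e-06). The log2 ratio of cluster 5 to the other nuclei was 0.23, -0.58 and -0.44 in the QCM replicates and -2.95, -1.57 and -0.74 in the SCM replicates, so the ratios did not overlap between media. In SCM replicate 1, where cluster 5 has 20 nuclei, the ratio rests on 41 UMIs. By cluster, the means over samples were highest in clusters 8 and 3, at 5220 and 3343 CPM with an SD above the mean in both, and 319 ± 323 CPM in cluster 5. Over the 5 samples other than SCM replicate 1, Rn7sk was at 576 ± 604 CPM in cluster 8 and 303 ± 358 CPM in cluster 5. The high mean of cluster 8 thus rested on the 11 cluster 8 nuclei of SCM replicate 1. Without SCM replicate 1 the interaction was -0.74 (adjusted p = 0.0187). It was -2.44 without SCM replicate 3, the far end of the range as samples were left out. DESeq2 and voom called 0 genes, and with replicates 2 and 3 alone Rn7sk was at -0.40 and was not called.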

How the results depend on the processing

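Genes at least 2-fold higher in all samples numbered 2, and 4 with a pseudocount of 0.1, 0 with 5, 1 at 50 CPM or more, 1 with equal weights of clusters, 4 without the nuclei with the most UMIs, 1 without shared barcodes, 23 with replicates 2 and 3 alone, and 2 to 9 as single samples were left out (9 without QCM replicate 1, 6 without SCM replicate 1). Genes at least 2-fold lower numbered 12, and 4 with a pseudocount of 5, 20 at 1 CPM or more, 3 at 50 CPM or more, 51 with equal weights, 31 with replicates 2 and 3 alone, and 11 to 23 (23 without QCM replicate 1). The log2 ratio of the share ranged from -0.055 to 0.24 and the difference in median UMIs from -1897 to 1253 as samples were left out, the latter being 133.5 with replicates 2 and 3 alone. Between media, 201 of 25014 genes (7 higher, 194 lower) were called with no filter on low counts and 0 in all other fits. For the interaction the 1 call became 0 with DESeq2, 0 with voom, 2 with no filter, 5 with the replicate block, 3 with replicates 2 and 3 alone and 1 to 12 as samples were left out (12 without SCM replicate 3, 5 without QCM replicate 1, 3 without QCM replicate 2). The sign of the medium ratio turned for Fam129a with voom (0.028), Ptpn22 with voom (0.22) and with library size alone (0.0078), and Slc30a10 with the replicate block (-0.032), the ribosomal covariate (-0.21) and replicates 2 and 3 alone (-0.13). As samples were left out it ran from -0.56 to 0.038 for Fam129a, -0.44 to 0.49 for Ptpn22, -0.17 to 0.30 for Slc30a10, -0.32 to 0.15 for Csgalnact1 and -0.88 to -0.26 for Grb10. The cause of these changes was not tested. Replicate numbers were not used as pairs in the main fit. The same-number correlations were 0.108, 0.264 and 0.048, and those of different numbers ran from -0.254 to 0.064. Whether equal numbers mark pairs was not tested. The replicate block called 0 genes between media. The alternative without shared barcodes was chosen after seeing the data.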
